A study of Mus musculus with 2 samples.

Results

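A set of 10 genes of the lysosome was followed in nuclei of injured mouse spinal cord. They are the cathepsins Ctsa, Ctsb, Ctsd, Ctsk, Ctsl, Ctss and Ctsz, the hexosaminidase subunit Hexa, the membrane protein Lamp1 and the transcription factor Tfeb. They were chosen by symbol, and all 10 were found among the 32285 genes of the files. Single-nucleus RNA was measured in wild-type C57BL/6 mice aged 6 to 8 weeks, 7 days after a contusion of the cord at the thoracic level T10. The contusion was made with a 5 g rod of 1 mm diameter dropped from 6 cm. The animals in the PBS group received 100 µL of phosphate-buffered saline by tail vein on each of 5 days, and those in the AEVs group received athlete-derived extracellular vesicles with 100 µg of protein in the same volume of that saline. All animals of both groups were injured and were given antibiotics, so no uninjured cord is compared here. Each group is 1 library of nuclei pooled from 3 mice. No difference between the libraries therefore has a replicate check, and no test across samples was possible. Ratios are AEVs over PBS, on a log2 scale unless a fold is named, and each bracketed range is a 95% interval for counting error alone.

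Lysosomes are acid compartments in which proteins, lipids and sugars taken up by endocytosis, phagocytosis or autophagy are broken down. Cathepsins are their proteases. They are made as inactive precursors, are sorted through the Golgi and become active at low pH. In injured cord, microglia and macrophages clear myelin debris, which gives their lysosomes a heavy load of lipid and protein. TFEB and its relatives MITF, TFE3 and TFEC bind a short palindrome, CACGTG, near the start of many lysosomal genes.

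Filtering left 14023 nuclei from PBS cord, at a median of 2600 unique molecular identifiers (UMIs), and 15549 from AEVs cord, at a median of 2400. These held 73085370 and 68103073 UMIs, and levels are counts per 1000000 UMIs of a class (CPM). Nuclei fell into 35 clusters, which were grouped into classes by marker genes, with the lysosomal genes left out of the clustering. A total of 10 classes held at least 100 nuclei in each library, and 177 barcodes occurred in both libraries. The 960 PBS and 1137 AEVs microglia-like nuclei formed 1 cluster with all 10 microglia markers raised. A lipid phagocyte-like class, led by Gpnmb and Spp1, held 1049 and 907 nuclei. In its main cluster all 10 microglia markers were raised too, so the line between these 2 myeloid classes is one of degree. The macrophage-like class was small, with 159 and 108 nuclei.

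RefSeq promoter windows were found for 9 of the 10 genes, with 12 windows among them, and Ctsb had no entry. The palindrome CACGTG, which reads the same on both strands, was present in windows of 4 genes, which are Ctsa, Ctsd, Ctsl and Lamp1. By windows, 4 of the 12 hold it. Of all 32851 windows of 300 bases, 7.15% hold it, and of the 27025 genes with such windows, 8.09% have it in a window. The longer form TCACGTG, searched on both strands and overlapping the shorter one, was present in windows of Ctsa, Ctsd and Lamp1. It was present in 3.77% of all windows and for 4.29% of all these genes. The 250 bases before the start are shown for 3 genes that differ in the palindrome and in the direction of their ratios, 5′ to 3′ on the strand of the gene, with each palindrome in capitals (RefSeq, GRCm38.p6). Lamp1, on the plus strand at chr8:13158911-13159160, holds 4 copies and was higher in the AEVs library. Ctss, on the plus strand at chr3:95526536-95526785, holds none and was higher too. Hexa, on the plus strand at chr9:59539290-59539539, holds none and was lower.
Lamp1: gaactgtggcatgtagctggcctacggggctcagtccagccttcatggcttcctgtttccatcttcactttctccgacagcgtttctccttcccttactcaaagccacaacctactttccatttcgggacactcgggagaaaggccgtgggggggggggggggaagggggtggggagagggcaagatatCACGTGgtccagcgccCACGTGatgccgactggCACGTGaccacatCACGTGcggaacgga
Ctss: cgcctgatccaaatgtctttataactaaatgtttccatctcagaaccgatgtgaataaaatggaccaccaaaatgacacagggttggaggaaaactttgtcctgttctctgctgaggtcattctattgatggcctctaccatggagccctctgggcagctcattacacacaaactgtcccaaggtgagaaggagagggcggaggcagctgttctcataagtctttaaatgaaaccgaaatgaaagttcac
Hexa: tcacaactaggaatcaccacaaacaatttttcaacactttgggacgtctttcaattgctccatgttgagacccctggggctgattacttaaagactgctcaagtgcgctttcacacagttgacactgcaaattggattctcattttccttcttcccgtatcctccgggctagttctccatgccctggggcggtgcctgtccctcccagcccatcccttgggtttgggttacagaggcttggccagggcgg
The 4 palindromes of Lamp1 begin 61, 45, 28 and 15 bases before the start. Those of Ctsd, a gene that was lower over all nuclei, begin 245 and 98 bases before it. Presence of these letters is a description of the window and not of binding. Over all nuclei, the genes with it had ratios of 0.84 for Ctsl, 0.47 for Lamp1, 0.19 for Ctsa and -0.29 for Ctsd. Those with a window but without it had 0.73 for Ctss, 0.04 for Ctsz, -0.32 for Tfeb, -0.44 for Hexa and -0.52 for Ctsk. A link between the palindrome and the ratios was not tested.

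Over all nuclei, 2 of the 10 genes were at least 1.5-fold higher in the AEVs library, Ctsl and Ctss. By the same rule 8.88% of the 17478 genes with at least 100 UMIs were higher, and 3.94% were lower. None of the 10 was lower by that fold. Ctsl, a cysteine protease of broad specificity, measured 147 CPM in the PBS and 263 CPM in the AEVs library, a ratio of 0.84 (0.80 to 0.87). Ctss, a cysteine protease of antigen-presenting cells that stays active at neutral pH, measured 243 and 404 CPM, a ratio of 0.73 (0.71 to 0.76). Lamp1, a glycoprotein of the lysosomal membrane, measured 182 and 252 CPM, 0.47 (0.44 to 0.50). These 3 were the highest ratios, and their counting intervals lay well clear of 0. In the other direction, Hexa measured 58.8 and 43.3 CPM, -0.44 (-0.51 to -0.37), Ctsd 354 and 289 CPM, -0.29 (-0.32 to -0.27), and Ctsk 12.3 and 8.58 CPM, -0.52 (-0.67 to -0.37), which became -0.61 and passed the fold with scaling to the median gene. Tfeb, the regulator, measured 22.0 and 17.5 CPM, -0.32 (-0.43 to -0.22). Ctsb lay at 0.32 (0.30 to 0.34), Ctsa at 0.19 (0.12 to 0.25) and Ctsz at 0.04 (-0.0082 to 0.09), the last within counting error of even. The mix of classes differed between the libraries, and levels in bulk sums move with it: fewer nuclei of a class and less RNA per nucleus cannot be told apart there. With the same mix of clusters in both libraries, the ratio was 0.89 for Ctsl, 0.78 for Ctss and 0.48 for Lamp1. Ctsd came to -0.16 and Ctsk to -0.31, each nearer to 0. Ribosomal protein genes, 101 in number, differed as well, with summed levels of 17128 CPM in the PBS and 23372 CPM in the AEVs library, and the 13 mitochondrially encoded genes measured 4020 and 2348 CPM. Their part in the ratios was not tested.

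**Figure D1:**
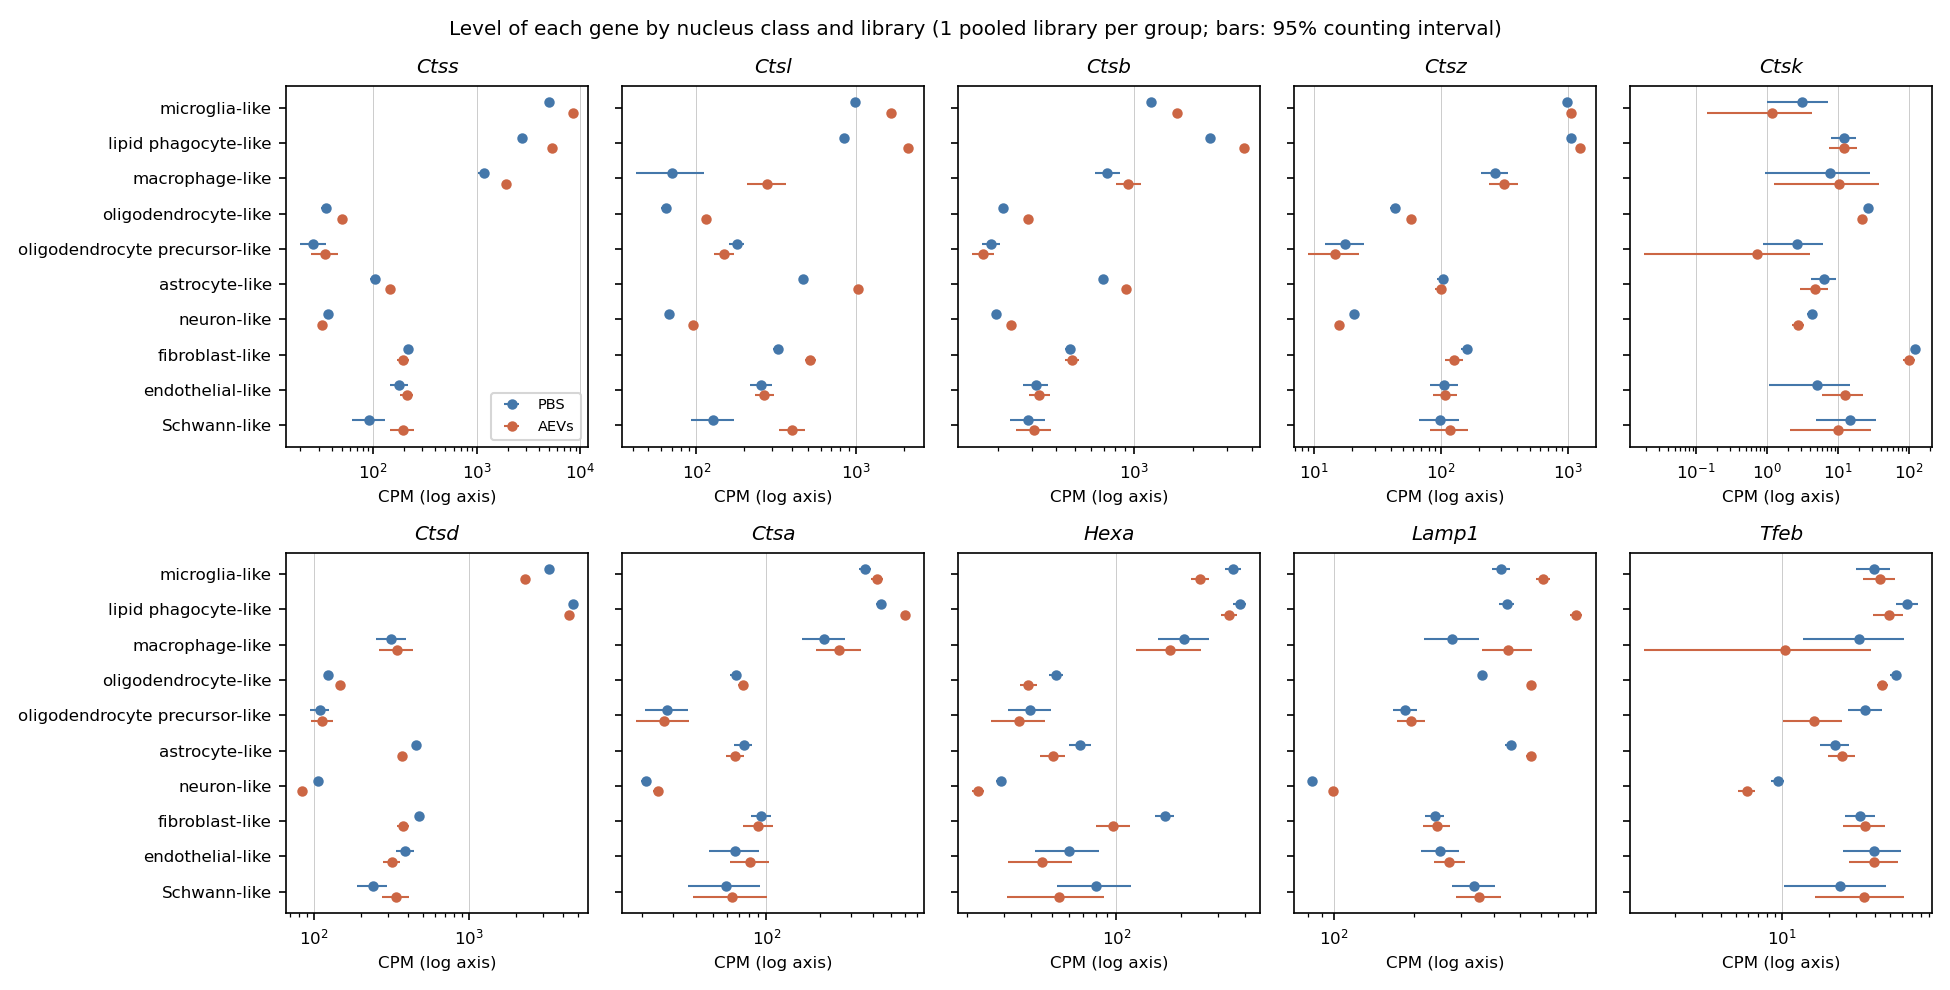
Level of each of the 10 genes (x axis, CPM, log axis) in 10 classes of nuclei (y axis), with 1 point per library, PBS in blue and AEVs in orange, and bars for the 95% counting interval. The 2 upper rows, microglia-like and lipid phagocyte-like, hold the highest levels of Ctss, Ctsd, Ctsb, Ctsl, Ctsz, Ctsa and Hexa, whereas Ctsk is highest in fibroblast-like nuclei.

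The order of classes is a description, since it pools the 2 libraries and the members were not used to form the classes. Ctss was highest in microglia-like nuclei at 6798 CPM, followed by lipid phagocyte-like nuclei at 3897 CPM and macrophage-like nuclei at 1492 CPM. No other class exceeded 211 CPM, and the intervals of the 3 leading classes did not overlap. Myeloid nuclei thus stood far above all others for this gene. Microglia-like nuclei alone gave 44.7% of all Ctss UMIs of the PBS and 52.8% of the AEVs library. Ctsd, the main aspartic protease of the lysosome, was highest in lipid phagocyte-like nuclei at 4531 CPM, ahead of microglia-like nuclei at 2749 CPM. Ctsb, a cysteine protease that can also trim peptides from their end, followed the same order at 2986 and 1445 CPM. For Ctsl the 2 myeloid classes overlapped, at 1397 CPM in lipid phagocyte-like and 1334 CPM in microglia-like nuclei, and astrocyte-like nuclei came next at 758 CPM. Ctsz, a carboxypeptidase, measured 1139 and 1027 CPM in the same 2 classes. Ctsa, which protects the lysosomal galactosidase and neuraminidase as well as cleaving peptides, measured 514 and 390 CPM, and Hexa, which takes part in the breakdown of GM2 ganglioside, 360 and 297 CPM.

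Lamp1, Ctsk and Tfeb had another distribution. Lamp1 measured 608 CPM in lipid phagocyte-like, 521 CPM in microglia-like, 508 CPM in astrocyte-like and 458 CPM in oligodendrocyte-like nuclei. It was lower in macrophage-like and Schwann-like nuclei, at 352 and 344 CPM, and in oligodendrocyte precursor-like nuclei, at 190 CPM. The microglia-like and astrocyte-like levels did not differ beyond their intervals. Because oligodendrocyte-like nuclei were many, they gave 33.2% of the Lamp1 UMIs of the PBS and 40.1% of those of the AEVs library. Ctsk, a collagen-degrading protease known from osteoclasts and fibroblasts, was highest in fibroblast-like nuclei at 115 CPM and next in oligodendrocyte-like nuclei at 24.1 CPM. Tfeb was low in every class, at most 58.1 CPM in lipid phagocyte-like and 49.6 CPM in oligodendrocyte-like nuclei, whose intervals overlapped. In neuron-like nuclei, the largest by RNA content, Tfeb measured 7.68 CPM. The classes under 100 nuclei in a library, which are T or NK cell-like, mural-like and ependymal-like, are not compared.

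Free RNA can put a few UMIs of an abundant gene into any droplet. After each nucleus was thinned to 1000 UMIs, 96.8% of PBS and 99.3% of AEVs microglia-like nuclei held a Ctss UMI. Among neuron-like nuclei, a class not known for Ctss, the share was 2.86% and 2.73%, or 16.9% and 17.6% before thinning. Median depths before thinning were 1609 and 1461 UMIs in microglia-like against 10014 and 7635 UMIs in neuron-like nuclei. The neuron-like share is read as background, and no difference in it is drawn. Oligodendrocyte-like nuclei gave 3.35% and 4.78% when thinned, and 8.37% and 10.2% before thinning, which is below the neuron-like shares. In PBS nuclei the thinned intervals overlapped, at 2.84% to 3.93% against 2.33% to 3.47%. In AEVs nuclei they did not, at 4.22% to 5.40% against 2.27% to 3.25%. Because the libraries and the shares before thinning differ on this, Ctss in oligodendrocyte-like nuclei is not read as above background. Astrocyte-like nuclei lay above it, at 7.62% and 9.80% when thinned and 19.9% and 22.6% before.

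In microglia-like nuclei, which belong to the phagocytes native to the cord, the cysteine cathepsins Ctss, Ctsl and Ctsb were higher and the aspartic protease Ctsd was lower in the AEVs library. Of 9 members with at least 100 UMIs there, 2 were at least 1.5-fold higher, against 8.98% of 5759 genes, and 0 were lower by that fold, against 4.64%. Ctss measured 4944 CPM in the PBS and 8551 CPM in the AEVs library, 1.73-fold, a ratio of 0.79 (0.75 to 0.83). Ctsl measured 984 and 1664 CPM, 0.76 (0.67 to 0.85). Both intervals lie above the line of 1.5-fold. Lamp1 measured 426 and 611 CPM, 0.52 (0.38 to 0.66), and Ctsb 1225 and 1652 CPM, 0.43 (0.35 to 0.52). Ctsa and Ctsz were close to even, at 0.22 (0.06 to 0.39) and 0.12 (0.02 to 0.21). Ctsd measured 3248 and 2278 CPM, -0.51 (-0.57 to -0.45), and Hexa 351 and 247 CPM, -0.51 (-0.70 to -0.33). Ctss and Ctsd, both higher in these nuclei than in astrocyte-like, oligodendrocyte-like and neuron-like nuclei, thus lay on opposite sides of even. Tfeb, with 63 and 73 UMIs, gave 0.13 (-0.38 to 0.64), and Ctsk had 5 and 2 UMIs.

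In microglia-like nuclei the difference was seen across the range of nuclei. At 1000 UMIs each, 855 PBS and 992 AEVs nuclei had a median of 5 and 8 Ctss UMIs, with middle ranges of 3 to 7 and 5 to 11. A count of 5 or more was found in 50.1% of PBS and 82.5% of AEVs nuclei. For Ctsd the medians were 3 and 2, and 24.1% of PBS against 13.7% of AEVs nuclei held 5 or more. The finer clustering at Leiden resolution 2 drew the class anew, with 931 PBS and 1051 AEVs nuclei. It consisted of a cluster of 880 and 785 nuclei and another of 51 and 266, in which Ccl12 and Trim30a were among the leading genes. The ratio of Ctss was 0.83 in the first and 0.80 in the second, that of Ctsl 0.74 and 0.91, and that of Ctsd -0.58 and -0.53. The signs of these 3 ratios were thus the same in both clusters, although the second was made up mostly of AEVs nuclei.

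**Figure D2:**
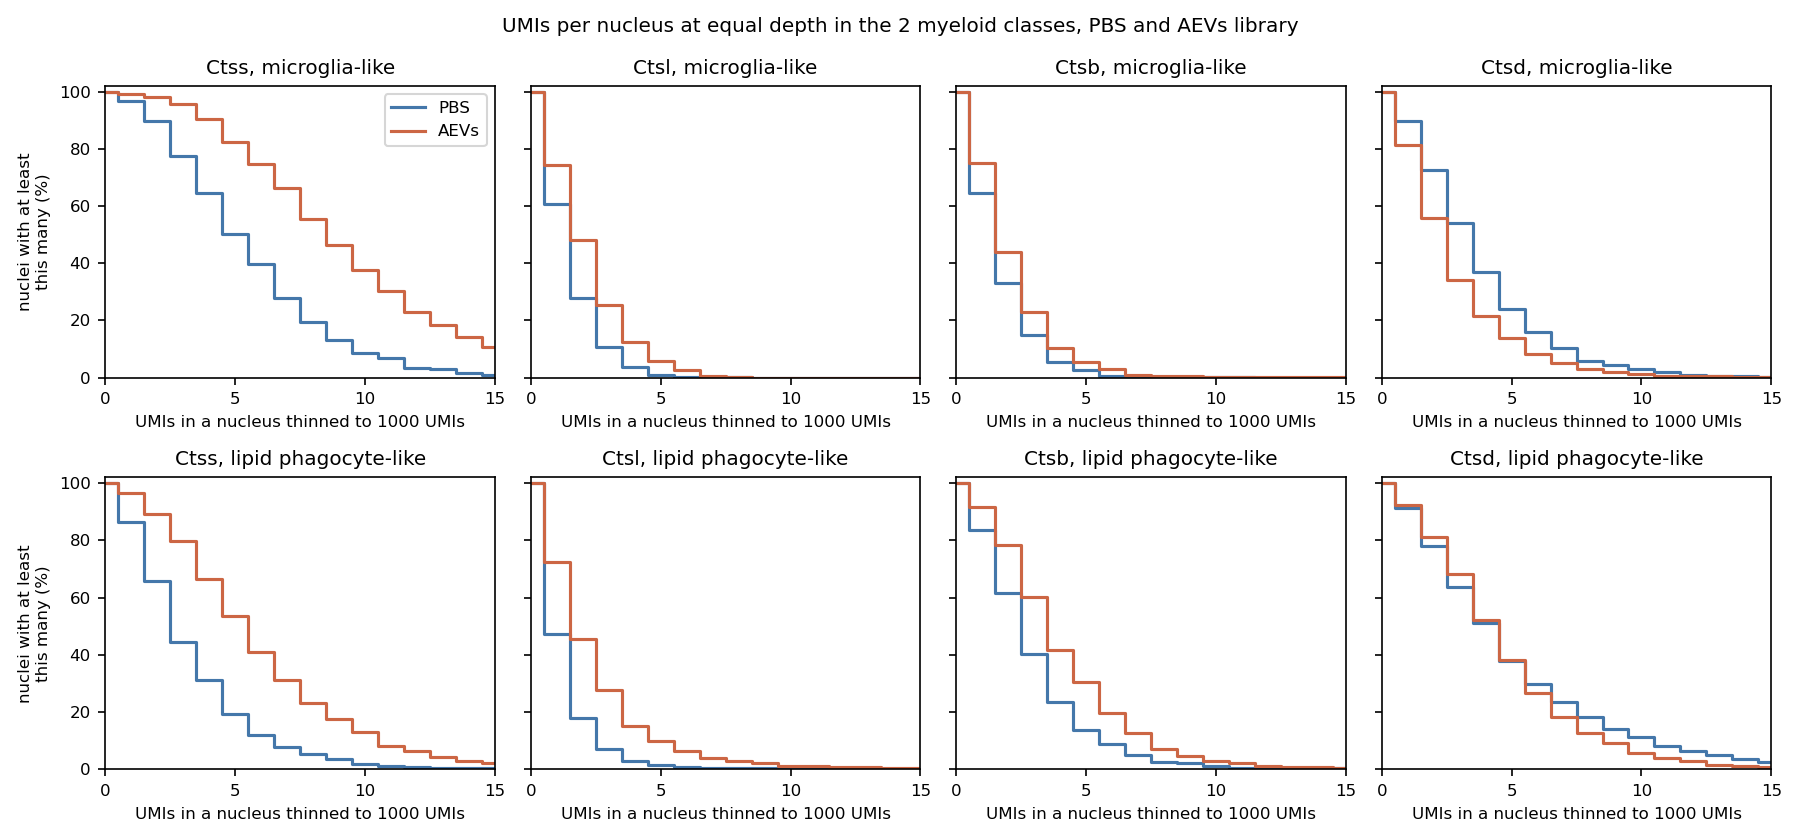
Share of nuclei (y axis, %) that hold at least the number of UMIs on the x axis, for Ctss, Ctsl, Ctsb and Ctsd in microglia-like (upper row) and lipid phagocyte-like nuclei (lower row), each nucleus thinned to 1000 UMIs, PBS in blue and AEVs in orange. The AEVs line lies to the right for Ctss, with 82.5% against 50.1% of microglia-like nuclei at 5 or more, and to the left for Ctsd in microglia-like nuclei, with 13.7% against 24.1%.

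Other readings differed in the same nuclei. Ribosomal protein genes summed to 44782 CPM in the PBS and 69282 CPM in the AEVs microglia-like nuclei, and mitochondrially encoded genes to 3517 and 2527 CPM. The 10 microglia markers summed to 7005 and 6420 CPM, 5 higher and 5 lower. The 10 macrophage markers summed to 154 and 214 CPM, with Cd163 and Lyve1 at 0 in both libraries and F13a1 at 0 in PBS nuclei. The 7 neutrophil markers summed to 751 and 468 CPM, with Cxcr2 at 0 in both. The part of these readings in the member ratios was not tested.

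Lipid phagocyte-like nuclei, a class named from genes of cells that take up lipid, had 3 members past the fold. Of 9 members with at least 100 UMIs, these 3 were at least 1.5-fold higher, against 8.17% of 6441 genes, and 0 lower, against 6.15%. Ctsl measured 840 CPM in the PBS and 2117 CPM in the AEVs library, 2.52-fold, a ratio of 1.33 (1.25 to 1.42). Ctss measured 2753 and 5379 CPM, 0.97 (0.92 to 1.01), and Lamp1 447 and 817 CPM, 0.87 (0.75 to 0.99). Ctsb, at 2461 and 3665 CPM, lay just short of the fold, at 1.49-fold and 0.57 (0.52 to 0.63). Ctsa measured 444 and 606 CPM, 0.45 (0.32 to 0.58), and Ctsz 1057 and 1246 CPM, 0.24 (0.15 to 0.32). Ctsd was nearly level at 4655 and 4369 CPM, -0.09 (-0.13 to -0.05), as was Hexa at 378 and 337 CPM, -0.17 (-0.32 to -0.01). Tfeb, with 144 and 84 UMIs, gave -0.41 (-0.81 to -0.01). The ratio of Ctsd in this class thus lay above that in microglia-like nuclei by more than both counting intervals.

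Leiden resolution 2 drew this class anew as well, with 1078 PBS and 993 AEVs nuclei. Its largest cluster, of 656 and 786 nuclei, was led by Apobec1, and the next, of 390 and 194, by Gpnmb and Atp6v0d2. Ctsl ratios were 1.29 and 1.47 there, Ctss ratios 0.89 and 1.14 and Lamp1 ratios 0.88 and 0.82. Ctsd measured 5580 and 4591 CPM in the first, -0.28 (-0.33 to -0.23), and 2578 and 3261 CPM in the second, 0.34 (0.24 to 0.44). Of the 10 members, Ctsd alone differed in sign between these 2 clusters. A further cluster, of 32 PBS and 13 AEVs nuclei, held the highest Ctsd of any cluster of the class at this resolution, 18022 and 12687 CPM. Ribosomal protein genes summed to 36168 CPM in the PBS and 54897 CPM in the AEVs nuclei of the class, the 10 lipid phagocyte markers to 8063 and 10061 CPM, and the 10 macrophage markers to 1119 and 684 CPM with Lyve1 at 0. Their part was not tested.

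Macrophage-like nuclei, which carry Mrc1 and F13a1, were few. Of 6 members with at least 100 UMIs, 2 were at least 1.5-fold higher, against 10.3% of 861 genes, and 0 lower, against 9.18%. Ctss measured 1166 and 1927 CPM, 0.72 (0.50 to 0.95), and Lamp1 279 and 450 CPM, 0.69 (0.22 to 1.17). Ctsl rested on 18 and 53 UMIs, at 1.97 (1.18 to 2.83), below the minimum for that count. In all 3 myeloid classes Ctss, Ctsl, Lamp1 and Ctsb were thus above 0 with intervals that left out 0. How many of all genes had such intervals is not given here. Ribosomal protein genes were close to level in this class, at 54001 and 54780 CPM. Markers of other blood cells were not: the 6 erythroid markers summed to 620 CPM in the PBS and 17152 CPM in the AEVs nuclei, the 7 B cell markers to 1206 and 262 CPM, and the 5 dendritic cell markers to 357 and 20.9 CPM, all 5 lower, with Xcr1, Clec9a and Cd209a at 0 in AEVs nuclei. Dendritic cells present antigen and are known to carry Ctss. Astrocyte markers summed to 322 and 623 CPM and Schwann cell markers to 122 and 450 CPM. Their part in the member ratios was not tested.

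**Figure D3:**
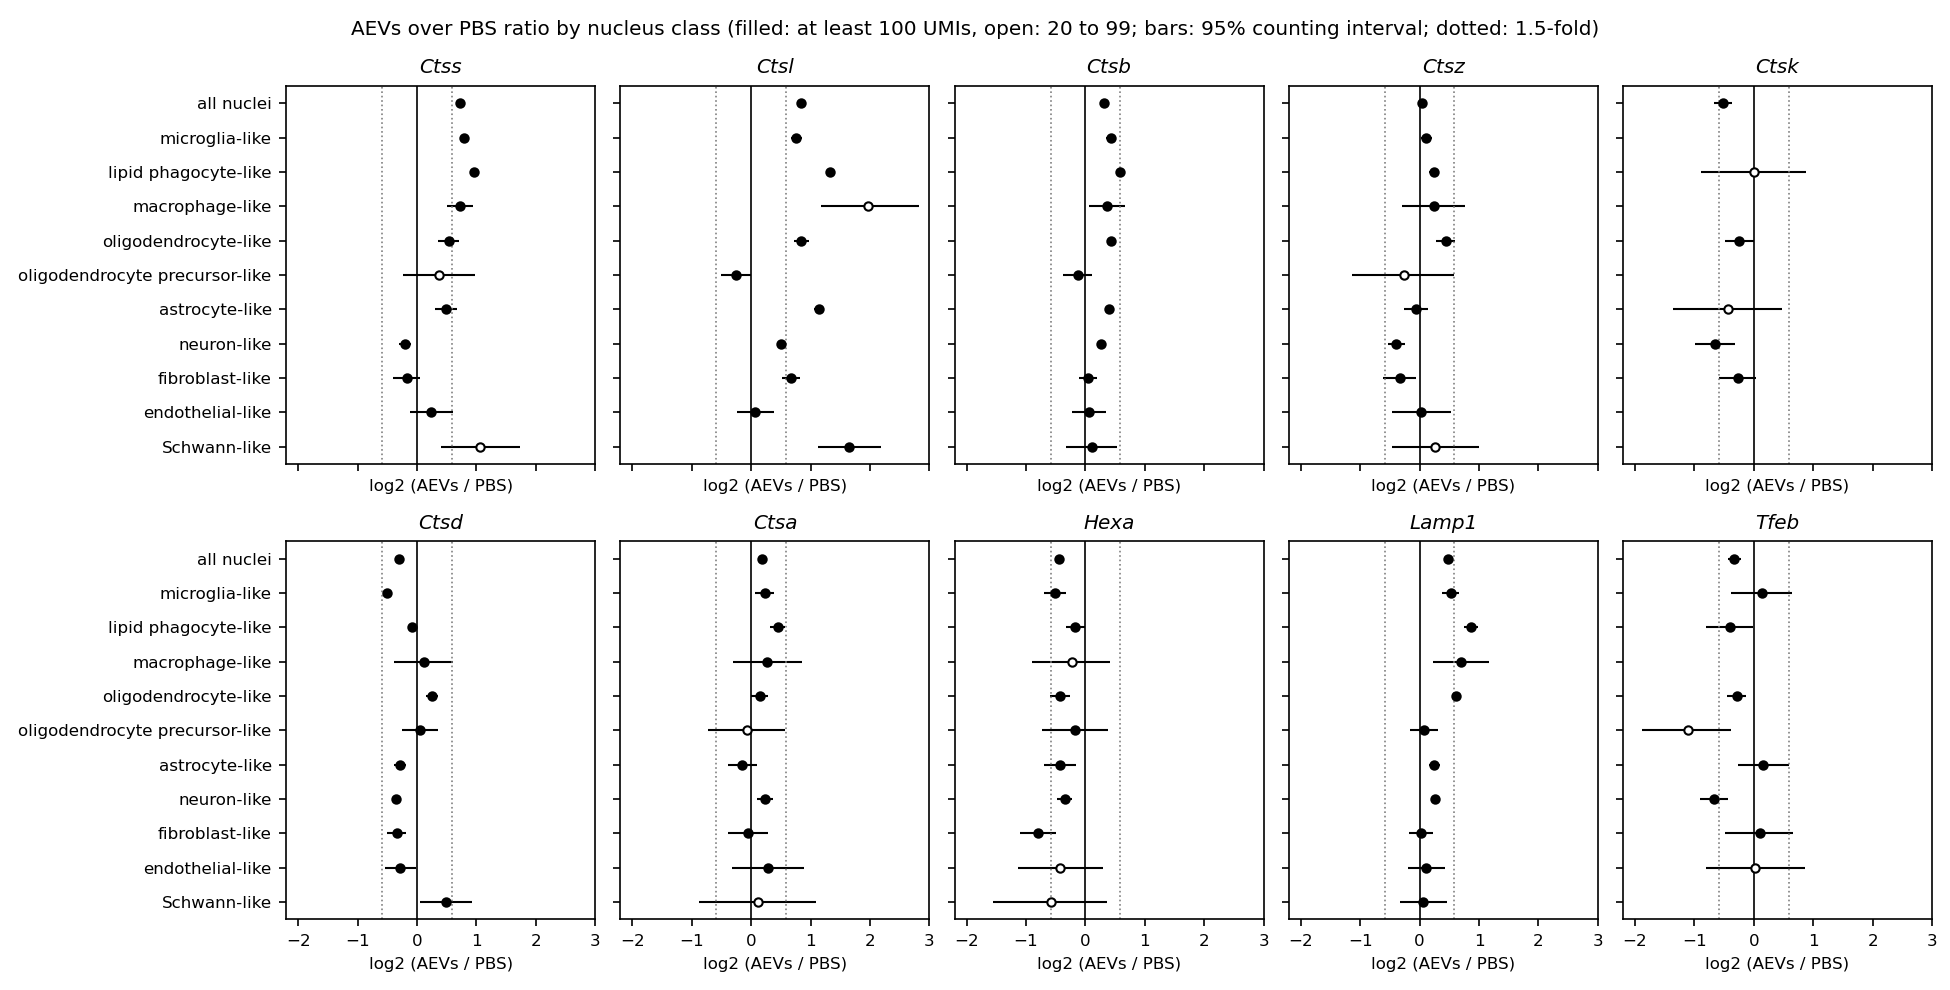
AEVs over PBS ratio (x axis, log2) of each of the 10 genes over all nuclei and in 10 classes (y axis), with 95% counting intervals, filled points for at least 100 UMIs and open points for 20 to 99, and dotted lines at 1.5-fold. Ctsl lies right of 0 in 8 of the 10 classes with its interval clear of 0, and Hexa lies left of 0 in all 10, with its interval clear of 0 in 6.

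Outside the myeloid classes Ctsl was higher, with its interval clear of 0, in 5 of 7 classes. In astrocyte-like nuclei it measured 466 and 1030 CPM, 1.14 (1.06 to 1.22), and was the 1 member of 9 that was at least 1.5-fold higher, against 5.46% of 9665 genes. No member was lower by that fold there, against 3.38%. All 3 astrocyte-like clusters had it higher, with ratios of 1.45, 0.98 and 1.204. Ctsb measured 693 and 913 CPM, 0.40 (0.33 to 0.47), and Ctsd 452 and 371 CPM, -0.28 (-0.38 to -0.19). Ctss, at 0.49 (0.30 to 0.67) for the class, ranged over its clusters from 1.33 in that led by Lcn2 through 0.54 to -0.21, so its value for the class does not describe them all. The 10 microglia markers in astrocyte-like nuclei summed to 115 CPM in the PBS and 125 CPM in the AEVs library, with 8 of them higher. Ribosomal protein genes summed to 25292 and 30833 CPM and mitochondrially encoded genes to 11710.3 and 8051 CPM. Their part in the member ratios was not tested.

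In oligodendrocyte-like nuclei, the myelin-forming cells, 2 of 10 members were at least 1.5-fold higher, against 12.6% of 11010 genes, and 0 lower, against 4.61%. Lamp1 measured 361 and 553 CPM, 0.62 (0.56 to 0.67), and Ctsl 64.1 and 115 CPM, 0.85 (0.72 to 0.97). A Lamp1 UMI was found in 31.3% and 42.1% of these nuclei when thinned to 1000 UMIs, against 9.10% and 10.8% of neuron-like nuclei, and in 57.1% and 66.2% against 51.8% and 50.9% before thinning. For Ctsl the thinned shares were 5.90% and 10.7%, against 5.95% and 9.87% of neuron-like nuclei, and the shares before thinning were 14.1% and 21.5% against 42.2% and 48.6%. The thinned shares of both classes thus overlapped in their intervals in each library. The pooled Ctsl level was slightly higher here, at 90.0 CPM (86.3 to 93.8) against 81.3 CPM (79.4 to 83.2) in neuron-like nuclei. At such low levels RNA of the nuclei and free RNA cannot be told apart. The median gene of the class was at 0.12, and with scaling to that gene the ratios were 0.50 for Lamp1 and 0.73 for Ctsl, which leaves Ctsl alone past the fold. Among the clusters both genes differed most in cluster 21, where Klk6 and Enpp6 were among the leading genes, at 0.79 and 1.54, and less in the largest, cluster 8, at 0.51 and 0.60. The small cluster 25, with 40 PBS and 39 AEVs nuclei and interferon-induced genes such as Ifit3 among its leaders, had 49 and 33 Lamp1 UMIs, -0.13 (-0.81 to 0.54), and 18 and 9 Ctsl UMIs, -0.56 (-1.90 to 0.67), both within counting error of even. Ctsd measured 122 and 146 CPM here, 0.25 (0.15 to 0.35), and was 0.13 with scaling to the median gene. Its sign in this class was thus opposite to that in microglia-like and astrocyte-like nuclei. The clusters at Leiden resolution 2 did not all share it. Ctsd was at -0.17 (-0.39 to 0.05) in the cluster of 1034 PBS and 1310 AEVs nuclei, and its ratio was positive in every other cluster of the class. Hexa measured 52.2 and 38.8 CPM, -0.43 (-0.60 to -0.26), and Tfeb 54.6 and 44.6 CPM, -0.29 (-0.46 to -0.13). Microglia markers summed to 57.3 and 48.6 CPM in the class and lipid phagocyte markers to 539 and 349 CPM, both lower in the AEVs library, whereas ribosomal protein genes summed to 16047 and 20618 CPM. Their part in the ratios was not tested.

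Neuron-like nuclei had 0 members of 10 at least 1.5-fold higher, against 8.71% of 15554 genes, and 2 lower, Tfeb and Ctsk, against 4.92%. Ctsl measured 67.8 and 95.9 CPM, 0.50 (0.43 to 0.57). Tfeb measured 9.34 and 5.88 CPM, -0.67 (-0.90 to -0.44), but 0.23 when each nucleus was thinned to 1000 UMIs. Thinning left a Tfeb UMI in only 18 PBS and 27 AEVs nuclei, 0.52% (0.31% to 0.82%) and 0.61% (0.40% to 0.88%). These intervals overlap, so no direction is read from the thinned value. Ctsk, at -0.65 (-0.996 to -0.31), was -0.36 after thinning and -0.31 with doublet calls kept. Ctsd measured 106 and 83.8 CPM, -0.35 (-0.41 to -0.28), and 0.04 with doublet calls kept. Markers of other classes were lower in AEVs neuron-like nuclei for all 10 oligodendrocyte markers, 955 against 534 CPM, all 10 astrocyte markers, 438 against 210 CPM, and all 10 microglia markers, 53.9 against 33.0 CPM. Mitochondrially encoded genes summed to 2858 and 1097 CPM and ribosomal protein genes to 12638 and 18515 CPM. Their part in these low levels was not tested.

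Fibroblast-like nuclei, which include cells of the fibrotic scar, were 1000 of the PBS nuclei and 544 of the AEVs nuclei. Of 10 members 1 was at least 1.5-fold higher, Ctsl, against 7.97% of 6941 genes, and 1 lower, Hexa, against 7.28%. Ctsl measured 325 and 519 CPM, 0.67 (0.52 to 0.83), and Hexa 168 and 96.8 CPM, -0.80 (-1.10 to -0.50). Ctsk, at its highest in this class, measured 121 and 101 CPM, -0.27 (-0.58 to 0.04), a difference within counting error. Fibroblast-like nuclei gave 33.2% of all Ctsk UMIs in PBS nuclei and 21.1% in AEVs nuclei. Oligodendrocyte-like nuclei gave more, at 35.7% and 47.3%, and neuron-like nuclei gave 21.7% and 19.7%. Fibroblast-like nuclei were 7.13% of all PBS and 3.50% of all AEVs nuclei. The 10 fibroblast markers themselves summed to 10628 CPM in the PBS and 8143 CPM in the AEVs nuclei of the class, 7 of them lower. All 10 oligodendrocyte markers were lower, at 2880 and 1854 CPM, macrophage markers summed to 597 and 336 CPM, with Cd163 at 0 in PBS nuclei, T or NK cell markers to 44.0 and 8.21 CPM and astrocyte markers to 2431 and 3429 CPM. Their part in the Ctsl and Hexa ratios was not tested.

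Of the remaining classes, Schwann-like nuclei had Ctsl at 43 and 118 UMIs, 1.64 (1.12 to 2.18), the 1 member of 4 past the fold, against 8.99% of 1213 genes, and 0 were lower, against 10.7%. In the same nuclei the fibroblast markers summed to 2726 and 1184 CPM, the lipid phagocyte markers to 533 and 866 CPM, the oligodendrocyte markers to 6437 and 8529 CPM and the erythroid markers to 89.4 and 294 CPM, and their part was not tested. Oligodendrocyte precursor-like and endothelial-like nuclei had none past it, of 5 and 7 members, where 6.45% and 5.66% of genes were higher and 6.39% and 5.56% lower. In oligodendrocyte precursor-like nuclei Ctsl measured 179 and 150 CPM, -0.26 (-0.52 to -0.0023). That interval barely left out 0, and the ratio was 0.02 as a mean over nuclei, so no direction is read from it. Tfeb, at 65 and 22 UMIs, was -1.11 (-1.87 to -0.39), below the minimum for the count. All 10 oligodendrocyte markers were lower in these nuclei, at 3666 and 2127 CPM, and all 10 astrocyte markers higher, at 772 and 1081 CPM, and their part was not tested.

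Across the 20 sums of class and library, the genes nearest to each member are given as a description. The sums share libraries and differ in depth. Ctss varied most closely with C1qc, C1qb and C1qa, the chains of the complement component C1q, at Pearson correlations of 0.997, 0.991 and 0.990. Ctsa was nearest to Ctsz, Cd68 and Tcirg1 (0.974, 0.968 and 0.962), and Ctsz to Tcirg1, Ctsa and Itgb5 (0.976, 0.974 and 0.969). Ctsd was close to Ctsz and Trem2 (0.943 and 0.942). Ctsb was nearest to Creg1, Plekhm2 and Cd68 (0.938, 0.932 and 0.930) and Hexa to Tyrobp, Fyb and Irf8 (0.960, 0.955 and 0.954). The nearest genes of these members include 5 that are best known in myeloid cells, Cd68, Trem2, Tyrobp, Fyb and Irf8. Lamp1 was nearest to Cd63, Kdm3a and Sat1 (0.899, 0.898 and 0.886) and Ctsl to Ctsd, Lgals3bp and Xlr (0.848, 0.845 and 0.837). Ctsk was nearest to Efemp1, Slc38a2 and Dock5 (0.865, 0.851 and 0.825), and Tfeb to Gng12, Spata1 and Csf1 (0.857, 0.834 and 0.814). Ctsk and Ctss lie side by side on chromosome 3, at 95499256 to 95509362 and 95526786 to 95556403 (GRCm38), and had a correlation of -0.04 with each other.

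The rest of the lysosome was read from 9 lists with 162 genes in the files. Over all nuclei 157 had at least 100 UMIs, of which 3 were at least 1.5-fold higher and 5 lower, with a median of 0.11 against 0.09 for all genes. As shares, 1.91% of list genes were higher, against 8.88% of all genes, and 3.18% lower, against 3.94%. The lists as a whole thus lay close to all genes by their median and had a smaller share past the fold on the higher side. Aga, an enzyme of glycoprotein breakdown, at 0.77 (0.66 to 0.88), Pcyox1 and Ctso were the 3 higher. The 5 lower were Ctsw, a protease of cytotoxic lymphocytes, at -1.46 (-2.04 to -0.91), the proton pump subunit Atp6v0d2 at -1.40 (-1.54 to -1.27), the cystatin Cst7 at -1.19 (-1.41 to -0.97), the phosphatase Acp5 at -1.14 (-1.61 to -0.69) and the transcription factor Mitf at -0.60 (-0.64 to -0.56).

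In lipid phagocyte-like nuclei 17 of 132 list genes were at least 1.5-fold higher and 5 lower, with a median of 0.12 against 0.02 for all genes. As shares, 12.9% were higher, against 8.17% of all genes, and 3.79% lower, against 6.15%. Glycosidases and sulfatases gave the most, with 6 of 19 higher and 0 lower and a median of 0.46. Hgsnat, counted in that list though it acetylates heparan sulfate at the lysosomal membrane, measured 27.1 and 87.7 CPM, 1.69 (1.25 to 2.15). Of the other proteases 1 of 10 passed the fold, Lgmn, the asparaginyl protease that processes cathepsin precursors, at 1105 and 2134 CPM and 0.95 (0.88 to 1.02). Pld3, a nuclease, was higher at 0.93 (0.78 to 1.08), Cd68, a membrane glycoprotein of phagocytes, at 0.74 (0.64 to 0.85), and Cstb, a cystatin that inhibits cysteine cathepsins, at 0.92 (0.73 to 1.12). The proton pump parted within itself: Atp6v0c, its ring subunit, measured 366 and 581 CPM, 0.67 (0.53 to 0.80), and Atp6v0d2, an isoform of macrophages and osteoclasts, 677 and 303 CPM, -1.16 (-1.31 to -1.02). Cst7, which controls cathepsins C and L, measured 143 and 63.1 CPM, -1.18 (-1.51 to -0.86), and the sorting receptor Sort1 89.9 and 47.9 CPM, -0.91 (-1.30 to -0.53). The nuclei of the cluster led by Atp6v0d2 were fewer in the AEVs library, as given above, and its part in that ratio was not tested.

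**Figure D4:**
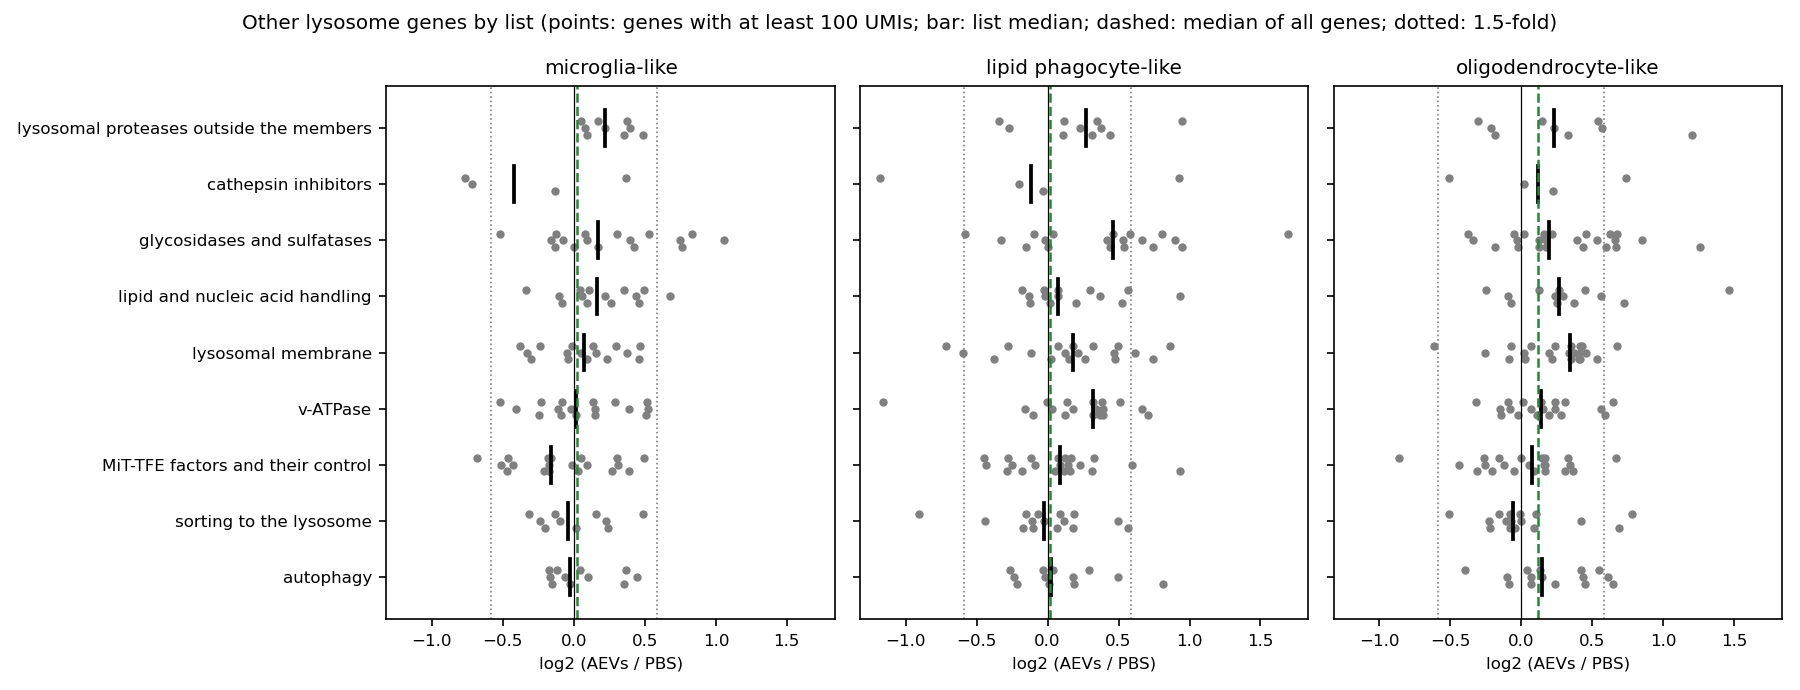
AEVs over PBS ratio (x axis, log2) of the genes of 9 lysosome lists (y axis) with at least 100 UMIs in 3 classes, with 1 grey point per gene, a black bar at the median of the list, a dashed line at the median of all genes of the class and dotted lines at 1.5-fold. In lipid phagocyte-like nuclei the median of glycosidases and sulfatases is 0.46, and the outlying low point of the v-ATPase list is Atp6v0d2 at -1.16.

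In microglia-like nuclei 5 of 117 list genes were at least 1.5-fold higher and 3 lower, with a median of 0.08 against 0.02 for all genes. These are 4.27% higher, against 8.98% of all genes, and 2.56% lower, against 4.64%. Neu1, the lysosomal neuraminidase held by Ctsa, measured 38.0 and 78.9 CPM, 1.05 (0.61 to 1.52). Npc2, which hands cholesterol to the membrane protein Npc1, measured 400 and 640 CPM, 0.68 (0.54 to 0.82). Of the 4 inhibitors with enough UMIs, 2 were lower by the fold, against 4.64% of all genes. Cst3, the secreted cystatin C that inhibits cysteine cathepsins, measured 9019 and 5300 CPM, -0.77 (-0.81 to -0.73), and Cst7 71.6 and 43.5 CPM, -0.72 (-1.16 to -0.28). Ctss and Cst3 thus stood in opposite directions in these nuclei, with Ctss at 4944 and 8551 CPM. In astrocyte-like nuclei Cst3 measured 6984 and 8430 CPM, 0.27 (0.25 to 0.29), and in lipid phagocyte-like nuclei 2208 and 1920 CPM, -0.20 (-0.27 to -0.14). Its direction in astrocyte-like nuclei was thus opposite to that in the 2 myeloid classes.

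In oligodendrocyte-like nuclei 19 of 144 list genes were at least 1.5-fold higher and 2 lower, where 12.6% and 4.61% of all genes were, so the share of 13.2% higher was close to that of all genes. With scaling to the median gene 7 were higher and 4 lower. Psap, the precursor of the saposins that present lipids to lysosomal enzymes, measured 349 and 965 CPM, 1.47 (1.42 to 1.52), the highest ratio of these genes in the class. Aga measured 23.5 and 56.1 CPM, 1.26 (1.06 to 1.46), Ctsf, another cysteine cathepsin, 14.9 and 34.3 CPM, 1.203 (0.95 to 1.46), and Lamp2, the partner of Lamp1 in the membrane, 170.5 and 272 CPM, 0.68 (0.60 to 0.76). Sort1 was lower there too, at 281 and 197 CPM, -0.51 (-0.58 to -0.43).

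Among the relatives of Tfeb, Mitf was lower in each of the 4 classes given here. It measured 715 and 444 CPM in microglia-like nuclei, -0.69 (-0.82 to -0.55), and 1052 and 780 CPM in lipid phagocyte-like nuclei, -0.43 (-0.53 to -0.34). In oligodendrocyte-like nuclei it measured 275 and 152 CPM, -0.86 (-0.94 to -0.78), and in astrocyte-like nuclei 126 and 104 CPM, -0.28 (-0.47 to -0.09). Tfec was higher in lipid phagocyte-like nuclei, at 35.7 and 53.8 CPM, 0.59 (0.14 to 1.04). Tfeb was at -0.29 in oligodendrocyte-like and -0.41 in lipid phagocyte-like nuclei. It was at 0.13 (-0.38 to 0.64) in microglia-like and 0.15 (-0.27 to 0.58) in astrocyte-like nuclei, both within counting error of even. Ctsl and Lamp1 were higher in all 4 classes, and a link between these genes was not tested. RNA in nuclei measures neither the amount of these factors nor their place in the cell.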

How the data were processed

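Single-nucleus UMI counts were deposited as 1 matrix per library, made from nuclei of frozen cord with a droplet 3′ kit, per the labels. The submitters' processing notes name Seurat and the build mm10. The aligner, annotation and free RNA correction were not given in the sources used here. Nuclei with at least 300 genes, 500 UMIs and under 5% mitochondrial UMIs were kept, and Scrublet (scanpy 1.11.5), run on each library, removed 771 PBS and 1400 AEVs nuclei as doublets. Depth was 82953601 UMIs in 15325 PBS and 81875882 UMIs in 17055 AEVs barcodes. Log-scaled counts of 2821 variable genes, 24 lysosomal genes left out, gave 30 principal components, 20 neighbours and Leiden clusters at resolution 1. Clusters were named from marker lists, by a scoring rule made after the data were seen. Of 35 clusters 2 stayed unnamed.

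UMIs were summed per class and library. The 95% intervals are exact: Poisson for levels, binomial given the summed UMIs for ratios, and Clopper-Pearson for shares of nuclei. The scripts were tested on simulated data. Members and lists were chosen with earlier results of these data known. Genes named are the members, the 2 top and 2 bottom ratios of each list in a class among genes with at least 100 UMIs, and the 3 genes nearest to each member, some of which are not reported here. Coordinates are from GENCODE M21 on GRCm38. The alternatives are described with their effect in the closing section.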

Additional observations from a re-analysis of the deposited data

How the results depend on the processing

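No paired analysis was possible because each group has 1 library, and no library could be left out. The 110 member ratios were recomputed under 10 alternatives. In microglia-like nuclei Ctss stayed between 0.71 and 0.84, Ctsl between 0.69 and 0.82 and Ctsd between -0.58 and -0.49; in lipid phagocyte-like nuclei Ctss stayed between 0.91 and 0.99, Ctsl between 1.21 and 1.40 and Lamp1 between 0.82 and 0.91. An interval that left out 0 was found for 66 of the 110, a count given without the share of all genes with such intervals. Of these 66, 6 turned in sign under some alternative, 5 of them in neuron-like nuclei. There Tfeb was 0.23 and Ctsa -0.07 when thinned to 1000 UMIs, Ctsd was 0.04 and Ctsz 0.15 with doublet calls kept, and Ctss, at -0.20, was 0.80 with doublets kept, 0.03 without the mitochondrial limit, 0.12 as a mean over nuclei and 0.09 with the same mix of clusters. The other was Ctsl in oligodendrocyte precursor-like nuclei, 0.02 as a mean over nuclei. Of the 44 ratios whose interval held 0, 31 turned in sign, among them Ctsd in macrophage-like nuclei, from 0.12 to -0.49 with doublets kept, and Ctsk in endothelial-like nuclei, from 1.28 on 3 and 10 UMIs to -1.19 as a mean over nuclei. The causes were not tested.

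Counts past the fold, given as higher or lower, moved as follows. For members over all nuclei, 2 higher became 0 at a fold of 2, and 0 lower became 1 with TMM scaling, with scaling to the median gene and when thinned, and 2 as a mean over nuclei. In oligodendrocyte-like nuclei 2 higher became 1 with TMM, median-gene scaling or thinning, and 0 at a fold of 2. In neuron-like nuclei 0 higher became 2 with doublets kept, and 1 when thinned or with the same mix of clusters. There 2 lower became 0 with doublets kept, thinned or at a fold of 2, and 1 without the mitochondrial limit, as a mean over nuclei or with the same mix. In astrocyte-like nuclei 1 higher became 2 with doublets kept, with at least 500 genes and 1000 UMIs or thinned, and 0 lower became 1 when thinned. At a fold of 2, microglia-like nuclei had 0 and lipid phagocyte-like nuclei 1 higher.

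For list genes over all nuclei, 3 higher became 1 with TMM or median-gene scaling, 5 when thinned and 0 at a fold of 2, and 5 lower became 3 when thinned and 2 with the same mix. In oligodendrocyte-like nuclei 19 higher became 7 with TMM or median-gene scaling and 3 at a fold of 2. There 2 lower became 1 with doublets kept or at least 500 genes and 1000 UMIs, 4 with TMM, median-gene scaling, thinning or a minimum of 20 UMIs, and 0 at a fold of 2. In microglia-like nuclei 5 higher became 8 with doublets kept or thinned, 9 without the mitochondrial limit, 11 at a minimum of 20 UMIs and 1 at a fold of 2; 3 lower became 5 with doublets kept, TMM or that minimum, and 0 at a fold of 2. In lipid phagocyte-like nuclei 17 higher became 1 at a fold of 2, and 5 lower became 2 at that fold and 8 at the minimum of 20 UMIs.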
